A study of Homo sapiens with 34 samples.

Results

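*CCND3* knockdown was examined by RNA-seq in RS4;11, a human B-cell acute lymphoblastic leukemia (B-ALL) line that carries the MLL-AF4 fusion. The comparison comprised 6 of the 34 samples of the series, 3 with an shRNA against *CCND3* and 3 with a scrambled shRNA, and its samples were chosen by cell line and shRNA as labelled. It covered 15944 of the 17587 genes listed in any of the 6 comparisons of the series. The other 28 samples were RS4;11 cells given palbociclib or its solvent DMSO, and the lines NALM-6 (ETV6-PDGFRB) and BV-173 (BCR-ABL) with the same 4 groups each.

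The shRNAs were delivered with a lentiviral vector that also encodes the red fluorescent protein TagRFP, so both groups were infected, and transduced cells were isolated on day 4. A single *CCND3* shRNA was used, so RNAs that this shRNA might target besides *CCND3* cannot be told apart from effects of *CCND3*. RS4;11 cells in the palbociclib comparison were not transduced, and received 1 µM palbociclib or DMSO for 3 days (3 samples each). NALM-6 was compared with 3 scrambled and 2 *CCND3* shRNA samples, and BV-173 with 3 of each. The labels do not say whether samples of a group were separate cultures.

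The table gives 1 level per gene and group, pooled by the authors over the samples. The spread between samples and the depth of each sample are therefore unknown, no error can be attached to a value, and no difference below was tested. All log2 ratios are the *CCND3* shRNA level over the scrambled shRNA level, unless another comparison is named. Of the 15944 genes, 12140 had a mean of the 2 levels of at least 10, and only these were counted. A gene was counted as higher or lower when its levels differed at least 1.5-fold, the fold limit used in the study, which is 0.58 on the log2 scale. No level was 0. The log2 ratios of low genes were narrow, with an SD over genes of 0.20 at mean levels below 1, against 0.72 at levels of 10 to 100, so that folds of low genes may be understated.

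Cyclin D3, the product of *CCND3*, binds and activates the kinases CDK4 and CDK6. The active kinases phosphorylate RB, which releases E2F transcription factors and starts the genes of DNA replication. Genes of mitosis follow later in the cycle and are held back in resting cells by the DREAM complex of RB relatives, E2F4 and MuvB proteins, through promoter elements called the cell cycle homology region. In precursor B cells cyclin D3 is the main D-type cyclin of pre-B cell expansion.

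*CCND3* (NCBI gene 896, chromosome 6, 41934933 to 42050035 in GRCh38.p14) had a level of 16178 with scrambled shRNA and of 3353 with *CCND3* shRNA, a log2 ratio of −2.27. Lower *CCND3* RNA was therefore present in the group labelled as knockdown. With palbociclib, which blocks the kinases and not the transcript, the level was 14267 against 17431 with DMSO, a log2 ratio of −0.29. Since these are bulk samples, fewer cells that hold an RNA and less RNA per cell cannot be told apart, here and in all results below.

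Before the results, the identity of the cells was checked. Of 12 markers of B-cell precursors, 11 had a level of at least 10 (*MME* did not), and of 6 markers of MLL-rearranged leukemia all 6 did, including *HOXA9*, *MEIS1* and *CSPG4*. Defining markers of other cell types were near 0, with *CD3D*, *CD3E*, *CD14* and *MPO* below 10. Of 10 T cell markers 1 passed, *LCK*, of 10 monocyte and granulocyte markers 4, of 8 erythroid and megakaryocyte markers 1, and of 8 markers of packaging or stromal cells 3. The summed levels of all listed markers were 719.9 with scrambled and 705 with *CCND3* shRNA for the monocyte list, 1152 and 1333 for the T cell list, nearly all from *LCK*, 14.0 and 12.1 for the erythroid list, and 25772 and 22238 for the stromal list, in which *VIM* took the largest share. The median log2 ratio over the 12140 genes was −0.01.

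After knockdown 1257 genes were higher, which is 10.4% of the 12140 genes, and 1372 were lower, which is 11.3%. At least 2-fold differences were seen in 421 genes higher and 570 lower. The counts below are to be read against these shares. All gene lists were chosen with earlier results of these data known, so their counts are not independent evidence. The log2 ratios ran from −0.96 at the 5th to 0.86 at the 95th percentile, with an SD over genes of 0.57.

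The D-type cyclin, CDK4/6 and RB pathway had 21 genes at level, of which 10 were lower and 1 was higher. *CCND1*, the D-type cyclin that is silent in most B cells, was the gene that was higher, with a level of 126 with scrambled and 409.9 with *CCND3* shRNA (log2 ratio 1.70). *CCND2*, the remaining D-type cyclin, had levels of 1.93 and 3.48, too low to be counted. Per kilobase of gene length as listed in the table, the *CCND3* level was 7663 with scrambled and 1589 with *CCND3* shRNA, and that of *CCND1* was 29.2 and 95.2. *CCND3* thus stayed the D-type cyclin with the highest level per kilobase in the knockdown group. The kinases differed less than the limit, with log2 ratios of −0.44 for *CDK4* and −0.04 for *CDK6*.

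Among the inhibitors of the pathway, *CDKN2D*, which encodes the CDK4/6 inhibitor p19, had levels of 916 and 422 (log2 ratio −1.12). *CDKN1A*, which encodes p21, was also lower, with 8715 and 5059 (log2 ratio −0.78). *CDKN1B*, which encodes p27, stayed within the limit at −0.06. Among the pocket proteins, *RBL1* (p107) was lower with a log2 ratio of −1.36, while *RB1* and *RBL2* were at −0.11 and −0.09. The E2F factors split by type. *E2F1*, *E2F2*, *E2F7* and *E2F8*, which are themselves E2F targets, had log2 ratios from −2.22 to −2.03, and *E2F1* went from a level of 2137 to 460.0. *E2F6* and the E2F partner *TFDP1* were lower by less, at −0.69 and −0.70. *E2F3* and *E2F4* stayed within the limit at −0.44 and −0.13, and *E2F5* was at 0.44.

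**Figure D1:**
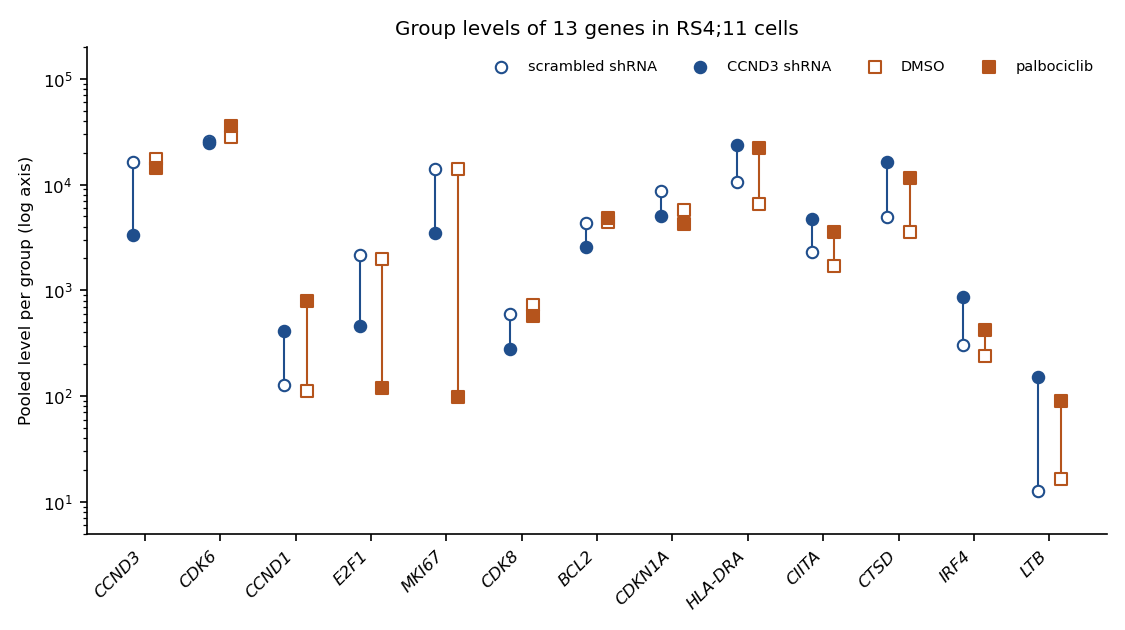
Levels of 13 genes in the 4 RS4;11 groups on a log axis, with scrambled shRNA (open circles), *CCND3* shRNA (filled circles), DMSO (open squares) and palbociclib (filled squares), each point 1 pooled level per group, so that no error bar exists; the 2 pairs come from separate tables. *CCND3*, *CDK8*, *BCL2* and *CDKN1A* are past the 1.5-fold limit in the circle pair and not in the square pair. Their knockdown log2 ratios are −2.27, −1.10, −0.77 and −0.78. *MKI67* drops from 13895 to 97.3 with palbociclib and from 14039 to 3460.3 with knockdown.

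Genes of DNA replication formed the list with the lowest median. Of 39 genes for licensing of origins and for the replication fork, 38 were lower and none was higher, with a median log2 ratio of −1.67 and a median level of 31.3% of the scrambled group. *RPA2*, a subunit of the single-strand binding protein RPA, was the exception at −0.29. *CDC6*, which loads the MCM helicase, had levels of 1896 and 415. The helicase subunit *MCM4* had 12089 and 2981, and the sliding clamp *PCNA* had 8537 and 2419. *GINS2*, part of the active helicase, had 1663 and 366 (log2 ratio −2.18), and *CLSPN*, the checkpoint mediator claspin, had 1933 and 427 (log2 ratio −2.18).

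The genes that make nucleotides and folates were divided. Of 24, 13 were lower and none was higher. The lowest were *TK1*, thymidine kinase, at a log2 ratio of −2.11, and *TYMS*, thymidylate synthase, at −2.08, followed by the ribonucleotide reductase subunit *RRM2* at −1.92. The purine enzymes *PAICS* and *GMPS* were both at −0.70 and the pyrimidine enzyme *CTPS1* at −0.59, while *ATIC* and *UMPS* of the same pathways were within the limit at 0.00 and −0.34. Of 25 genes for homologous recombination and the Fanconi pathway 23 were lower (median −1.62), among them *RAD54L* at −2.15 and *BRCA2* at −1.96. The other two, *PALB2* at −0.08 and *FANCF* at 0.12, stayed within the limit.

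The listed genes of mitosis, chosen like all the lists with earlier results of these data known, were lower without exception. All 53 listed genes were at least 1.5-fold lower, with log2 ratios from −2.03 (*ANLN*, a cleavage furrow protein) to −0.65 (*PTTG1*, securin) and a median of −1.59. *MKI67*, the proliferation marker, had levels of 14039 and 3460.3. *TOP2A*, the topoisomerase that untangles sister chromatids, had 8758 and 2584. The kinase *PLK1* had 2017 and 727, and *CDC20*, the activator of the anaphase promoting complex, had 1869.6 and 621. The 53 genes include 2 transcription factors that drive such genes, *MYBL2* at a log2 ratio of −1.92 and *FOXM1* at −1.85.

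Gene groups that did not depend on the lists were taken from the annotation carried by the table. Among 952 Gene Ontology terms with at least 20 genes at level, the lowest medians were those of DNA replication initiation (−1.50, with 24 of 33 genes lower), mitotic sister chromatid segregation (−1.42, 17 of 22) and the centromeric region of chromosomes (−1.31, 27 of 41). The highest medians were those of the phagocytic cup (0.47, with 8 of 20 genes higher), positive regulation of interferon-gamma production (0.45, 7 of 21), the lysosomal lumen (0.45, 25 of 58) and the humoral immune response (0.43, 6 of 21).

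The promoters of 6 of these cell cycle genes are shown because they carry the elements through which E2F and DREAM are known to act. Each line gives the 150 bases that end just before the RefSeq start in GRCh38.p14, 5′ to 3′ on the strand of the gene. Capitals mark E2F motifs (TTTGGCGC or TTTCCCGC), the cell cycle homology region (TTTGAA) and the CCAAT box, read on both strands, so that GCGGGAAA is TTTCCCGC and ATTGG is CCAAT on the opposite strand.
*E2F1* (chr20:33686386-33686535, minus strand): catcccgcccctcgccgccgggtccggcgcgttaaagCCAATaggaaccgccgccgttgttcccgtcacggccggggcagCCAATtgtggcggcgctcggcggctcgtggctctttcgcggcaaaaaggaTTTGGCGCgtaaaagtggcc
*GINS2* (chr16:85688955-85689104, minus strand): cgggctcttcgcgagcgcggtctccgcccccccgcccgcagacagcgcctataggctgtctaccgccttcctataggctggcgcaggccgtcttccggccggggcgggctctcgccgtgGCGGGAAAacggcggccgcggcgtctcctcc
*MKI67* (chr10:128126424-128126573, minus strand): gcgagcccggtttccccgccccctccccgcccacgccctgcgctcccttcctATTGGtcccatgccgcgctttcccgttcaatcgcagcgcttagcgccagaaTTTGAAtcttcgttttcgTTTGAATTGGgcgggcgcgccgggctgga
*CDC20* (chr1:43358831-43358980, plus strand): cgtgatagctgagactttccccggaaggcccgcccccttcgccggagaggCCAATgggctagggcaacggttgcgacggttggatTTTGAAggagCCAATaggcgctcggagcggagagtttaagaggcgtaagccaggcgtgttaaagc
*PLK1* (chr16:23678739-23678888, plus strand): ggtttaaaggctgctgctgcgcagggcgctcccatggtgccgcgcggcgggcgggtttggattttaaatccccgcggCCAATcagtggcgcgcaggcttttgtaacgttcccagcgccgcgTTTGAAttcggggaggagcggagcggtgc
*CCNB2* (chr15:59104996-59105145, plus strand): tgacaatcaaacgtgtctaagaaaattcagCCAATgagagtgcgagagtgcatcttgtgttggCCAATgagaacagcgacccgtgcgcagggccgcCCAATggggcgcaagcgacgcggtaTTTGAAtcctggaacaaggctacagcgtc

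In *E2F1* the E2F motif begins 20 bases before the start, and in *GINS2* 31 bases. In *PLK1* and *CCNB2* the cell cycle homology region begins 29 bases before the start, in *CDC20* 65 bases, and in *MKI67* it occurs at 47 and at 29 bases, where its last letter is shared with a CCAAT box on the other strand. The CCAAT boxes of *CCNB2* begin at 120, 87 and 54 bases. The levels of *CCNB2*, cyclin B2, were 3200.4 with scrambled and 1028 with *CCND3* shRNA.

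The same letters were counted in the 250 bases before the start of 5963 genes with a mean level of at least 100 and a single listed start. TTTGAA was present in 97 of 651 lower genes (14.9%), in 40 of 451 higher genes (8.87%) and in 7.80% of all 5963. Among the 275 genes that were at least 2-fold lower the share was 21.8%. TTTGGCGC was held by 3.38% of the lower and 0.443% of the higher genes, against 1.01% of all, and TTTCCCGC by 5.99% and 1.11%, against 2.60% of all. CCAAT occurred in 48.7% of the lower, 35.3% of the higher and 37.1% of all genes. The E-box CACGTG, the core of sites for MYC and for the lysosomal regulators of the TFE family, went the other way, with 7.68% of the lower, 13.3% of the higher and 9.71% of all genes. Over 22114 RefSeq promoters of the same length, expressed here or not, the shares were 14.0% for TTTGAA, 0.552% for TTTGGCGC, 1.37% for TTTCCCGC, 33.4% for CCAAT and 6.34% for CACGTG. A match is a description of letters and shows no binding.

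**Figure D2:**
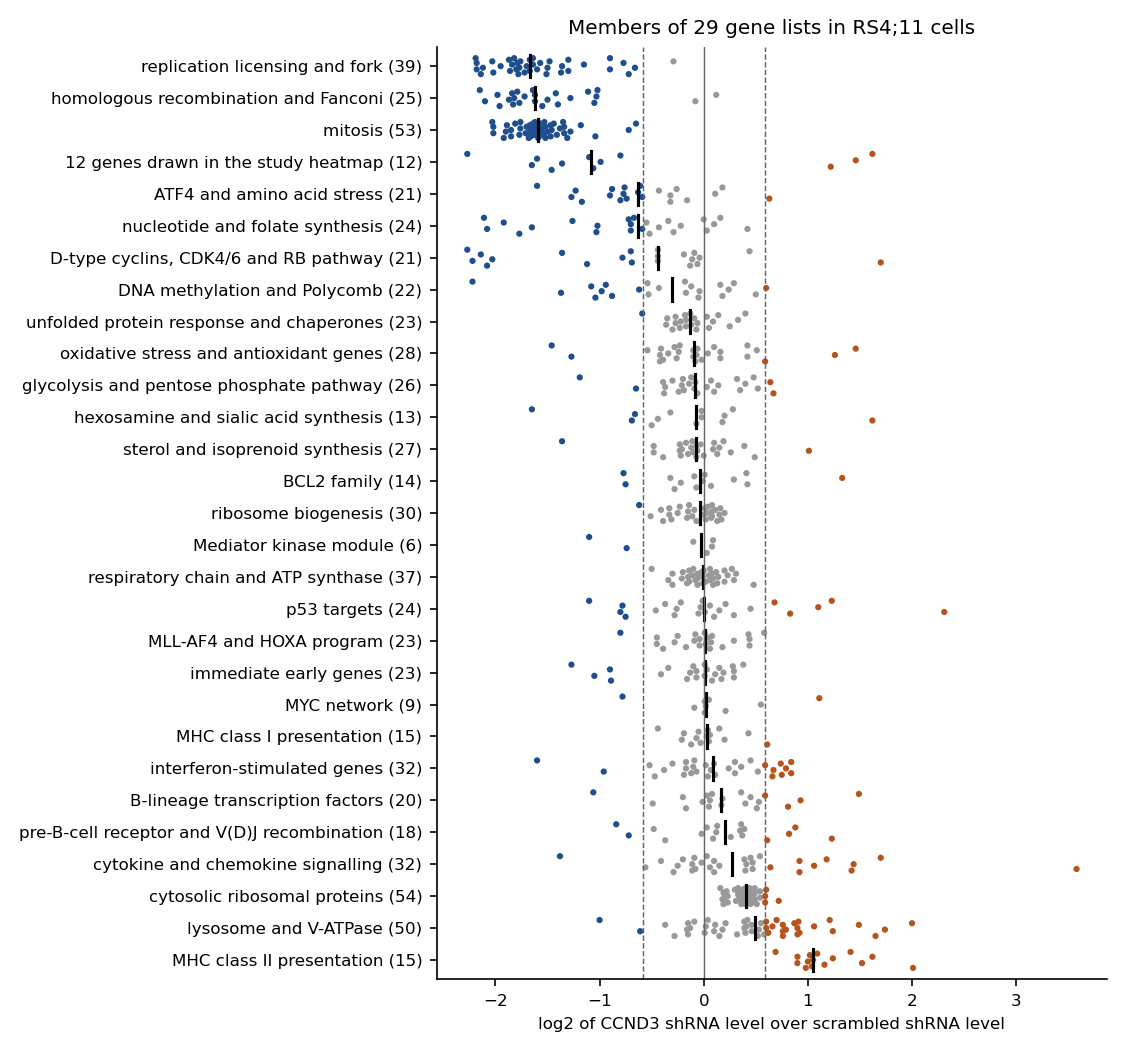
log2 ratio of *CCND3* shRNA over scrambled shRNA for each member of 29 gene lists in RS4;11 (points, with the number of genes at a mean level of at least 10 in brackets), with the median of each list as a black bar and the 1.5-fold limits as dashed lines. Blue points are at least 1.5-fold lower and orange points at least 1.5-fold higher; the medians run from −1.67 for replication to 1.05 for MHC class II presentation.

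At the opposite end lay the genes of MHC class II, which present peptides to helper T cells. All 15 genes of the list were at least 1.5-fold higher, with log2 ratios from 0.69 to 2.01 and a median of 1.05, against 10.4% of all genes. The transactivator *CIITA*, which switches on the class II genes, had levels of 2308 with scrambled and 4761 with *CCND3* shRNA (log2 ratio 1.04). The chain *HLA-DRA* had 10669 and 23772, *HLA-DQA1* had 869.8 and 2680.4, and *HLA-DMB*, which helps to load peptides, had 327 and 1317. The invariant chain *CD74* went from 61519 to 114482 (log2 ratio 0.90). The *HLA-DRB* genes share near-identical sequence and the class II genes differ between alleles, so reads may be divided among them and single values are uncertain. The MHC class I list moved little, with 1 of 15 genes higher, *HLA-E* at 0.61, none lower, and a median of 0.03.

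By number, the lysosomal list held more higher genes than any other of the 29 lists, while the MHC class II list had the larger share. Of 50 genes for lysosomal enzymes, membrane proteins and the proton pump, 21 were higher (42.0%, against 10.4% of all genes). Another 2 were lower, and the median was 0.49. The protease *CTSD* had levels of 4937 and 16482 (log2 ratio 1.74). *GM2A*, an activator of ganglioside breakdown, had 777 and 2439.9, the sialidase *NEU1* had 312 and 879, and the pump subunit *ATP6V0A1* had 63.0 and 251. The genes that were lower were the protease *CTSH*, from 685 to 342, and the glucuronidase *GUSB* at a log2 ratio of −0.61. *TFEB*, a regulator of lysosomal genes, was within the limit at 0.39. *SMPD1*, the acid sphingomyelinase, was among the 12 genes of largest increase, with levels of 47.1 and 229.9.

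Genes of the B lineage did not move as a group. Of 20 B-lineage transcription factors 4 were higher and 1 was lower. *IRF4*, a factor of late pre-B and plasma cells, had levels of 307 and 862 (log2 ratio 1.49), *IRF8* was at 0.93, *FOXO1* at 0.81 and *SPIB* at 0.59. *CBFB*, the partner of the RUNX proteins, was lower, with 3282 and 1578 (log2 ratio −1.06). *PAX5*, *EBF1* and *IKZF1* had log2 ratios of 0.03, −0.01 and 0.05.

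Of 18 genes of the pre-B-cell receptor and V(D)J recombination 4 were higher and 2 were lower. The receptor component *CD79B* had levels of 1299 and 3057, and the kinase *BTK* was at a log2 ratio of 0.82 and its adaptor *BLNK* at 0.61. *IGLL1*, a surrogate light chain of pro-B and pre-B cells, was lower, with 8926 and 5425, as was *DNTT*, the polymerase that adds bases at V(D)J joints, with 135 and 75.2. The recombinase genes *RAG1* and *RAG2* were at −0.37 and −0.48. *MS4A1*, which encodes CD20 and appears later in B-cell development, had 14.2 and 239.5 (log2 ratio 4.07). *CD22*, an inhibitory receptor of B cells, was at 1.37.

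Targets of the MLL-AF4 fusion and the *HOXA* genes differed little. Of 23 genes at level 22 stayed within the limit, with a median of 0.01. *HOXA9* was at 0.08, *MEIS1* at 0.02, *FLT3* at 0.06 and *MEF2C* at 0.44. *PROM1*, which encodes the stem cell antigen CD133, was the exception, with levels of 12247 and 7018 (log2 ratio −0.80). *MYC* was at 0.01, and in its network of 9 genes *MXD4*, a repressor that competes with MYC, was higher with 978 and 2115, while *MXD3* was lower at −0.78.

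Genes of cell death and of p53 showed no shared direction. Of 14 members of the BCL2 family, *BMF*, a death-promoting BH3-only protein, was higher with levels of 661 and 1666 (log2 ratio 1.33). *BCL2*, the survival protein, was lower with 4332 and 2544 (log2 ratio −0.77), and so was the BH3-only gene *PMAIP1* at −0.75. *MCL1*, *BCL2L1* and *BCL2L11* lay between −0.07 and 0.07. Of 24 p53 targets 5 were higher and 4 lower, with a median of 0.00. *TP53INP1* was the highest, with 62.5 and 309, and *DDB2*, a repair gene, was the lowest at −1.10. *MDM2* was at 0.10.

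The list of 21 amino acid stress genes, many of them targets of ATF4, had 13 lower genes, 1 higher and a median of −0.63. The lower genes included the serine synthesis enzymes *PHGDH* (3718 and 1589.9) and *PSAT1* (3333 and 1481), the cystine carrier *SLC7A11* (544 and 225) and the neutral amino acid carrier *SLC7A5* (17767 and 10608). *ASNS*, asparagine synthetase, was the higher one at 0.63, and *ATF4* itself was at −0.16. In the list of unfolded protein response genes and chaperones 1 of 23 was lower, *HSP90AA1* at −0.59, and none was higher.

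Of 22 genes of DNA methylation and Polycomb 8 were lower and 1 was higher, *EZH1* at 0.60. *UHRF1*, which guides DNMT1 to newly copied DNA, had levels of 16323 and 3498 (log2 ratio −2.22), and *DNMT1* had 7198 and 2781. The Polycomb methyltransferase *EZH2* was at −1.04.

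Cytosolic ribosomal protein genes were shifted upward together by a small amount. All 54 had log2 ratios above 0, from 0.16 to 0.72, with a median of 0.41, and 4 passed the limit. Their summed level was 1326251 with scrambled and 1768315 with *CCND3* shRNA. In contrast, 30 genes of ribosome biogenesis had a median of −0.04 with 1 lower gene, and 37 genes of the respiratory chain and ATP synthase had a median of −0.01 with none past the limit.

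Of 32 cytokine and chemokine signalling genes 9 were higher and 1 was lower. *LTB*, lymphotoxin beta, had levels of 12.7 and 152 (log2 ratio 3.58), the BAFF receptor *TNFRSF13C* had 253 and 822, and the adhesion receptor *CD44* had 1889.6 and 5110.4. *CD40* was at 1.06, and the integrin subunits *ITGB2* and *ITGAL* were both at 0.92. The kinase *PIM1* was lower, with 959 and 368. Of 32 interferon-stimulated genes 8 were higher and 2 lower. *OAS1* and *OAS2* were each at 0.84, *STAT2* at 0.75 and *IRF9* at 0.79, while *HERC5* was at −1.60. Of 23 immediate early genes 4 were lower, *KLF2*, *JUN*, *ATF3* and *DUSP6* at −1.27 to −0.89, and none was higher.

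Genes of metabolism were past the limit in both directions, mostly in shares near or below those of all genes (10.4% higher, 11.3% lower). Of 26 genes of glycolysis and the pentose phosphate pathway 2 were higher and 2 lower, the latter *ENO2* at −1.19 and *LDHA* at −0.65. Of 27 sterol and isoprenoid genes *TM7SF2* was higher at 1.01 and *ICMT*, which methylates prenylated proteins such as RAS, was lower at −1.36. Of 28 oxidative stress genes 3 were higher and 2 lower, among the latter *PRDX3*, the mitochondrial peroxiredoxin. Of 13 hexosamine and sialic acid genes 1 was higher (7.69%) and 3 lower (23.1%). *GFPT1*, the rate-limiting enzyme of hexosamine synthesis, had levels of 2994 and 952 (log2 ratio −1.65).

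*CDK8*, the kinase of the Mediator complex that the study followed up (chromosome 13, 26254129 to 26405238), had levels of 599 with scrambled and 279 with *CCND3* shRNA, a log2 ratio of −1.10. Its close relative *CDK19* had 677 and 406 (log2 ratio −0.74). The 2 kinases share sequence, so reads may be divided between them. The other 4 genes of the module, *CCNC*, *MED12*, *MED13* and *MED13L*, lay between −0.10 and 0.09.

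The study drew 12 genes in a heatmap as regulated by knockdown and not by palbociclib in all lines, *CCND3* and *CDK8* among them. They were chosen on these samples, with limits on p and q, so their direction is not independent evidence. In RS4;11 9 were lower and 3 were higher with knockdown. The lower genes besides those described were *ACBD7* (247 and 81.7), *SEPT7* (1899 and 957), which encodes a septin, and the kinase *NEK7* (1395 and 799). The higher ones were *RENBP* (159 and 489), *HSD17B10*, a mitochondrial dehydrogenase (338 and 927), and *DYNLRB1*, a dynein light chain (634 and 1476). The text of the study counts all 3 with the genes that only knockdown repressed, whereas their levels were higher here. With palbociclib in RS4;11, 4 of the 12 also passed the limit in the same direction, on fold of the pooled levels alone. These were *ACBD7* at −1.32, *CBFB* at −0.74, *ICMT* at −0.70 and *RENBP* at 1.43.

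The 12 genes of largest decrease at a mean level of at least 100 were headed by *CTDSPL*, a phosphatase that acts on RB, with levels of 341 and 51.1 (log2 ratio −2.74), followed by *CCND3*. The others, *ZNF367*, *FAM111B*, *UHRF1*, *E2F1*, *PSMC3IP*, *CDC6*, *DSCC1*, *GINS2*, *DIAPH3* and *CLSPN*, had log2 ratios from −2.27 to −2.18. All but *CCND3* were also lower with palbociclib, with log2 ratios from −5.81 (*DIAPH3*) to −2.52 (*CTDSPL*).

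The 12 genes of largest increase had scrambled levels from 11.2 to 214. They were ranked by ratio with a limit on the mean of the 2 levels, a choice that favours low scrambled levels. *ITGAD*, an integrin subunit of leukocytes, had levels of 11.2 and 317 (log2 ratio 4.82), and *ANGPT4*, an angiopoietin, had 27.3 and 231. *ADAM19*, a membrane protease, had 131 and 941, and *CYTIP*, a regulator of leukocyte adhesion, had 214 and 1049. *JAML*, an adhesion molecule of leukocytes, had 67.6 and 412, and *MPEG1*, perforin-2, had 46.5 and 246. *IGLL5* had 120.4 and 606, but its transcript shares sequence with the immunoglobulin lambda genes, so its source is uncertain. The remaining genes were *MS4A1*, *PRICKLE1*, *WHRN*, *TP53INP1* and *SMPD1*. Of the monocyte and granulocyte markers, *MPO* and *CD14* stayed below 10, with 3.45 for *MPO* in the knockdown group. Of the 4 markers at level *CD33* was higher, from 100.1 to 178, *LYZ* and *CEBPE* were at 0.29 and 0.27, and *CSF1R* was at −0.35. Their part in the increases was not tested. With palbociclib 11 of the 12 were higher, and *IGLL5* was not (log2 ratio −0.10).

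The comparison with palbociclib asks which differences also occurred when the kinases were inhibited. The 2 comparisons have separate controls, stand in separate tables whose scales may differ, and differ in duration, transduction and sorting, so their levels are given side by side and differences between them were not tested. With palbociclib 1989 genes were higher and 1985 lower, each 16.5% of 12043. Of 1192 genes that were higher with knockdown and at level in both tables, 848 were also higher with palbociclib, which is 71.1% of the knockdown genes and 43.8% of the palbociclib genes. Another 12 were lower with palbociclib and 332 were within the limit. Of 1344 lower genes 1081 were also lower with palbociclib (80.4% and 54.9%), 13 were higher and 250 were within the limit. Of the 11936 genes at level in both comparisons, 16.2% were higher and 16.5% lower with palbociclib.

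The sizes were not alike across groups. The 53 mitosis genes had a median log2 ratio of −5.26 with palbociclib, which left a median of 2.61% of the DMSO level, against 33.3% of the scrambled level with knockdown. *MKI67* went from 13895 to 97.3, and *KIF20A*, a kinesin of cytokinesis, from 2078 to 12.4. *E2F1* went from 1976 to 118. For the 39 replication genes the median was −2.78 with palbociclib. Amino acid stress genes had 17 of 21 lower with palbociclib and a median of −1.33, with *CHAC1*, a glutathione-degrading enzyme, at −4.31 against −0.59 with knockdown.

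MHC class II genes were higher in both comparisons, with a median of 1.58 over the 14 genes at level with palbociclib. Lysosomal genes had 25 of 50 higher and a median of 0.57, and ribosomal proteins had 23 of 54 higher and a median of 0.56. *CCND1* was also higher, from 112 to 787.

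**Figure D3:**
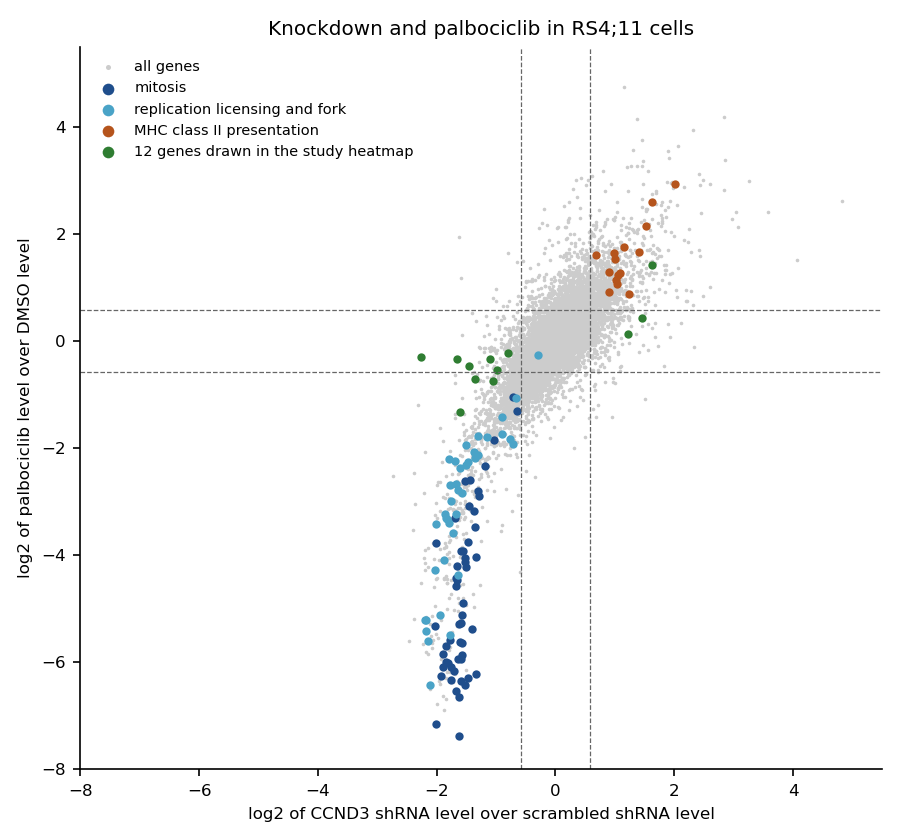
log2 ratio of *CCND3* shRNA over scrambled shRNA (horizontal) and of palbociclib over DMSO (vertical) for genes at a mean level of at least 10 in RS4;11, with 4 gene lists in colour and the 1.5-fold limits as dashed lines. Mitosis genes reach −7.39 with palbociclib and stop at −2.03 with knockdown, MHC class II genes lie in the upper right corner, and 8 of the 12 heatmap genes lie within the limits of the vertical axis.

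Genes whose palbociclib log2 ratio lay within 0.2 of 0 numbered 3035 at a mean level of at least 100 in both tables. The 6 at each end are described, so their large knockdown ratio and small palbociclib ratio follow from the choice. The lowest were *FUT4*, the fucosyltransferase that makes CD15, with levels of 4862 and 2017 with scrambled and *CCND3* shRNA and of 4238 and 3862 with DMSO and palbociclib, then *CCNA1*, cyclin A1, with 443 and 191 (485 and 446), *MRPL16*, a mitochondrial ribosomal protein, with 623 and 287 (855 and 779), and *CDKN2D*, *ZNF443* and *PRDM8* at −1.12 to −1.08. The highest were *IGLL5*, *ALOX5AP*, the partner of 5-lipoxygenase, with 228 and 869 (119 and 127), and *LSP1*, an actin-binding protein of leukocytes, with 1226 and 4061 (955 and 895). *GP9*, a platelet glycoprotein, was at 1.12 and *COL1A1*, a collagen chain, at 1.10, while the stromal collagens *COL1A2* and *COL3A1* had levels of 0.306 in the knockdown group.

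*DYNLRB1* was also in this set, with a log2 ratio of 1.22 after knockdown. Its scrambled level of 634 lay below the other RS4;11 levels, which were 1476 with *CCND3* shRNA, 1757 with DMSO and 1941 with palbociclib. *HSD17B10* showed the same order, with 338 in the scrambled group against 927, 1015 and 1381. The *DYNLRB1* level with scrambled shRNA was also below that with *CCND3* shRNA in NALM-6 (480.4 and 1531) and in BV-173 (800.3 and 1808). For *CDK8* it was the *CCND3* shRNA level of 279 that stood apart from 599, 724 and 573, and for *GFPT1* the level of 952 from 2994, 2863 and 2282. *BCL2* behaved like *CDK8*, with 2544 against 4332, 4386 and 4778. Which level of a gene stands apart rests on levels from separate tables and was not tested. An effect of the scrambled shRNA on these levels was not tested either.

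With the same shRNA in the other lines fewer genes passed the limit, 1002 higher (8.55%) and 1217 lower (10.4%) of 11726 in NALM-6, and 455 (4.05%) and 605 (5.39%) of 11230 in BV-173. *CCND3* itself had log2 ratios of −2.04 and −1.68 there. Of 963 genes that were higher in RS4;11 and at level in NALM-6, 358 were higher in NALM-6 (37.2% of the RS4;11 and 42.4% of the NALM-6 genes) and 43 were lower. Of 1247 lower genes 726 were lower in NALM-6 (58.2% and 63.1%) and 9 were higher. In BV-173 the shared genes were 196 of 939 higher (20.9% and 46.0%) and 299 of 1200 lower (24.9% and 51.5%). Over the 10547 genes at level in all 3 lines, 239 of 1158 lower genes were lower in both other lines (20.6%, against 2.55% of all 10547 genes) and 422 in neither (36.4%, against 87.1%). Of 840 higher genes 73 were higher in both (8.69%, against 1.01%) and 446 in neither (53.1%, against 90.6%).

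The listed mitosis genes were lower in NALM-6 without exception (median −1.31) and in 29 of 53 cases in BV-173 (median −0.63). Replication genes had medians of −1.08 and −0.50. Ribosomal protein genes were above 0 in all 3 lines, with medians of 0.33 in NALM-6 and 0.53 in BV-173. Of the amino acid stress genes, 9 of 21 were lower in NALM-6 and none was higher (median −0.55). In BV-173 none of 20 was lower and 1 was higher (median 0.22). MHC class II genes had a median of the other sign in NALM-6. In NALM-6 6 of 14 were lower and 1 was higher, *IFI30* at 0.92, with a median of −0.52, and in BV-173 2 of 15 were higher and 1 was lower, with a median of 0.21. *CIITA* had log2 ratios of −0.99 in NALM-6 and −0.65 in BV-173, and its levels there went from 1372 to 690.2 and from 591 to 378.

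**Figure D4:**
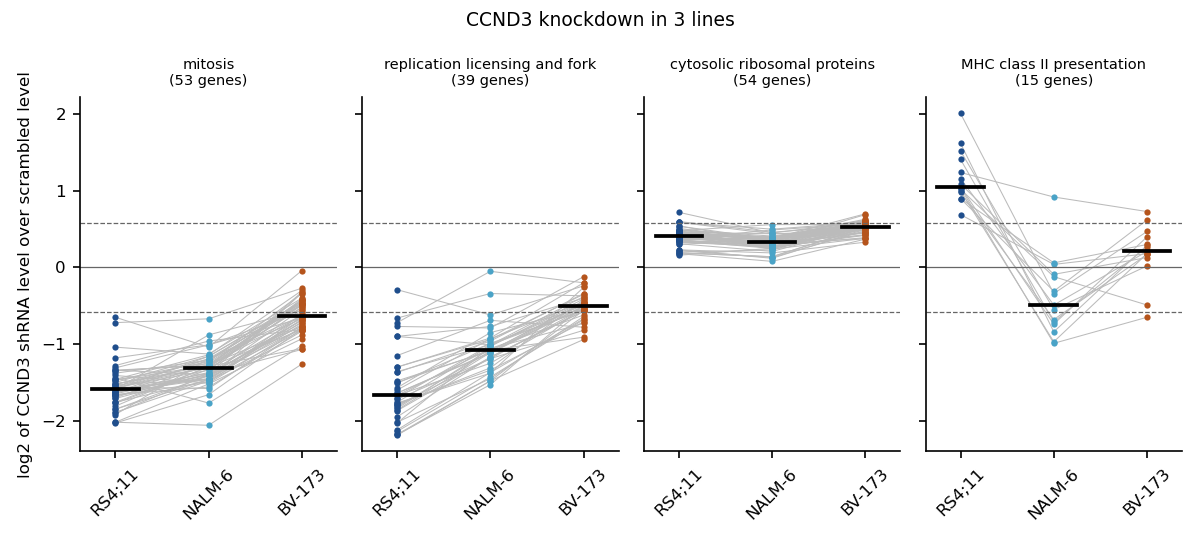
log2 ratio of *CCND3* shRNA over scrambled shRNA in RS4;11, NALM-6 and BV-173 for the genes of 4 lists, each gene 1 point per line joined by a grey line, with medians as black bars and the 1.5-fold limits as dashed lines. The 15 MHC class II genes lie between 0.69 and 2.01 in RS4;11, between −0.99 and 0.92 in NALM-6 and between −0.65 and 0.73 in BV-173, while mitosis and replication genes are below 0 in each line.

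The 6 genes that exceeded the mean of the other two lines by most, among 8820 genes at a mean level of at least 100 in each line, were *MS4A1*, *IGLL5*, *NCF1*, *FCRLA*, *IRF4* and *CIITA*. They were chosen for this difference, which was not tested. *NCF1*, a subunit of the phagocyte oxidase whose pseudogenes share its sequence, had levels of 5894 and 18201 in RS4;11, and its log2 ratio was 1.63 against −0.87 in NALM-6 and −0.13 in BV-173. *FCRLA*, a B-cell protein related to Fc receptors, was at 1.63, −0.66 and −0.30 in the same order, and *IRF4* at 1.49, −0.72 and −0.47. *MS4A1* had a level of 1604 with scrambled shRNA in BV-173 and of 14.2 in RS4;11, in separate tables whose scales may differ.

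At the other end were *KLF2*, *C12orf75*, *C1orf21*, *PPP2R3B*, *CTNNAL1* and *MT1X*. *KLF2*, a factor of lymphocyte quiescence, had levels of 166 and 68.8 in RS4;11 (log2 ratio −1.27) and log2 ratios of 1.71 in NALM-6 and −0.16 in BV-173. *CTNNAL1*, an alpha-catenin relative, had 1883 and 450.1 in RS4;11, with log2 ratios of −2.06, −0.91 and −0.43. *C1orf21* went from 369.5 to 120.4 and was at −1.62, −0.14 and −0.24. *MT1X*, a metallothionein with near-identical relatives, was at −0.72 in RS4;11, 0.33 in NALM-6 and 1.00 in BV-173. Of the 6, all but *MT1X* were also lower with palbociclib in RS4;11, with log2 ratios from −3.78 to −0.72.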

How the data were processed

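RNA-seq of 6 RS4;11 samples (3 *CCND3* shRNA, 3 scrambled shRNA), grouped as labelled, was analysed beside the palbociclib comparison of the same line and the knockdown comparisons of NALM-6 and BV-173. Per the labels, the provider's pipeline was SOAPnuke for read filtering, Bowtie2 for mapping on hg38, RSEM for levels and DESeq2 for group comparisons. Each table as deposited holds 1 signal per gene and group (a level pooled over samples, with a scaling not given in the sources used here). The authors' columns of log2 fold change, p-value, adjusted p and direction were not used. Depth and spread are unknown, so no test was run.

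For each gene the log2 ratio of the 2 levels was computed, with no pseudocount. Genes were counted at a mean level of at least 10 and a fold of at least 1.5. Of 15944 gene IDs 15922 matched RefSeq, the source of positions and promoters (GRCh38.p14). Old symbols stand as in the table. The members and the 35 lists (29 besides markers) were chosen with earlier results of these data known. Named genes were *CCND3*, the 12 heatmap genes, the 12 largest changes each way at a mean level of at least 100, 6 each way with a palbociclib log2 ratio within 0.2 of 0, 6 each way against the mean of the other lines, and list members. *CCND2*, *MME* and the comparisons of levels over 4 groups were added after values were seen. Alternatives were other fold and level limits, a pseudocount of 10 and ratios less their median. Python 3.11.15, numpy 2.4.6, pandas 2.3.3 and matplotlib 3.10.9 were used. The calling rule was tried on simulated levels with planted changes and an assumed spread. This checks the rule and not how reliable the calls are in these data. The values of 1 list member are not reported here.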

Additional observations from a re-analysis of the deposited data

Results flagged for a closer look

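Some results after *CCND3* knockdown in RS4;11 had the opposite sign to another line, with both beyond the 1.5-fold limit or, for a list, on opposite sides of 0. Each line had 1 pooled level per group, so single samples could not be seen and these differences were not tested. In log2 ratios, RS4;11 less NALM-6, they were 2.87 for *ALOX5AP*, 2.49 for *NCF1*, 2.29 for *FCRLA*, 2.21 for *IRF4*, 2.04 for *CIITA*, −1.77 for *PPP2R3B* and −2.98 for *KLF2*. The median of the MHC class II genes in RS4;11 lay 1.57 above that in NALM-6. Other lists also had medians on opposite sides of 0, such as amino acid stress genes at −0.63 in RS4;11 and 0.22 in BV-173. Against BV-173 the differences were 1.69 for *CIITA* and −1.72 for *MT1X*. *ALOX5AP* had a level of 228 with scrambled shRNA in RS4;11 and of 869 with *CCND3* shRNA. *NCF1* and *MT1X* share sequence with other genes, so their values are uncertain.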

How the results depend on the processing

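With a fold limit of 2 in place of 1.5, 421 genes were higher and 570 lower. The counts stayed within 1.5 times under the other 4 settings (no minimum level, a minimum of 100, a pseudocount of 10, ratios less their median). With a minimum of 100, the median log2 ratio moved by at least 0.1 for 2 of the 29 lists, to 0.10 for cytokine and chemokine signalling and to −0.43 for DNA methylation and Polycomb. A pseudocount of 10 moved 14 of 55 named gene ratios, such as *ITGAD* to 3.94, *MS4A1* to 3.37 and *CTDSPL* to −2.52. None of these settings changed the sign of a value past the 1.5-fold limit. For the ratio of a single gene none of them could, since the median taken off was only −0.01. Medians near 0 did change sign, from 0.01 to −0.01 for the MLL-AF4 and *HOXA* list with a minimum of 100. For p53 targets a median just below 0 (−0.00 as rounded) went to 0.01 with ratios less their median. No paired analysis was possible because the tables give 1 level per group and their columns carry no replicate number. For the same reason no replicate could be left out. What limits all values is that neither depth nor the spread between samples is known.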
